A study of Caenorhabditis elegans with 2 samples.

Results

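The genes followed here encode glycolytic enzymes other than glyceraldehyde-3-phosphate dehydrogenase (GAPDH). They were looked up in a list of genomic regions enriched with an ATFS-1 antibody in Caenorhabditis elegans. They were 10 genes, namely gpi-1, pfk-1.1, aldo-1, aldo-2, tpi-1, pgk-1, ipgm-1, enol-1, pyk-1 and ldh-1. A peak was taken as theirs by the gene name written beside it, split at slashes. That name had to be the gene's symbol, its older locus name or a listed synonym. By that rule 8 of the 10 genes had a peak, at 9 of the 1005 peaks in the list, and pfk-1.1 and pgk-1 had none.

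The list came from chromatin immunoprecipitation followed by sequencing (ChIP-seq) on lysates of whole wild-type worms. Both groups were grown from eggs on food that silences spg-7, which encodes a mitochondrial protease, and were taken as L4 larvae at about 48 h. The groups were 1 library precipitated with an ATFS-1 antibody and 1 library taken through without antibody, so no value below has a replicate check and no test between conditions could be made. There was no group without spg-7(RNAi), so the list shows enriched regions under this stress only and no change caused by it. Neither was there a group of worms lacking ATFS-1. Antibody signal that does not depend on ATFS-1 therefore cannot be told apart from its binding. A whole-worm lysate mixes all tissues, and a peak list holds no value from which the tissue of a site could be read.

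Glycolysis splits glucose into pyruvate in the cytosol and yields ATP without oxygen, and lactate dehydrogenase then turns pyruvate into lactate and regenerates the NAD+ that the pathway consumes. ATFS-1 is a bZIP transcription factor that is imported into healthy mitochondria and degraded there. When import falters it enters the nucleus and switches on the mitochondrial unfolded protein response, in which glycolytic genes are among those known to be induced.

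The antibody library held 10992796 tags after removal of duplicates and the control 10583049. Duplicates had made up 40.0% of the antibody library and 20.3% of the control. Per the file headers the libraries came from different sequencing project folders, so project and antibody cannot be told apart. The 9 glycolytic peaks held 5820 antibody tags, 1.27% of the tags in all peaks. All tag counts, fold enrichments, scores and false discovery rates here are those of the authors' peak caller, in the authors' deposited table. Fold enrichment is the antibody signal over the level expected from the control, and the score is the caller's p-value as its log10 with the sign turned, times 10. The false discovery rate compares how many peaks were called with the libraries swapped to how many were called as deposited. Positions are the list's own, and no source used here names their genome build.

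Of the 10 genes, 80.0% were named at a peak, against 4.53% of the 19971 protein-coding nuclear genes. The genes had been chosen with that outcome known, so the share describes them and tests nothing. Of the 9 other glycolytic genes, those of hexokinase and GAPDH and the isozyme genes pfk-1.2 and pyk-2, 3 were named at a peak (33.3%). Over all 19 glycolytic genes the count was 11 (57.9%), with gpd-2 and gpd-3 counted separately at their shared peak. The peaks of the 10 genes ranged from 2.76-fold at gpi-1 to 7.09-fold at ldh-1, with a median of 4.0 over the 9 peaks. The median over all 1005 peaks was 3.26, and the upper quartile 4.04. Above the median of the list lay 7 of the 9 peaks, and above its upper quartile 4.

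**Figure D1:**
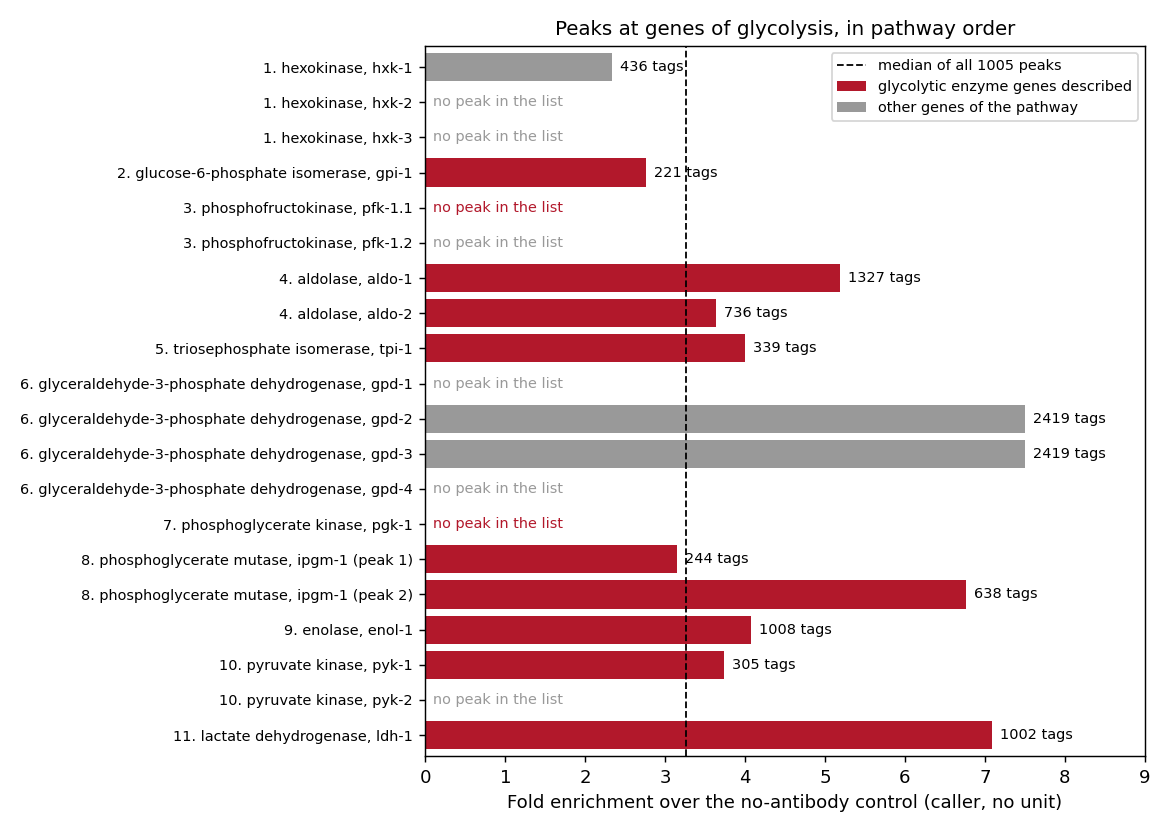
Fold enrichment (horizontal axis, a ratio without unit) of each peak named for a gene of glycolysis, in pathway order from hexokinase to lactate dehydrogenase, with the antibody tags beside each bar. Red marks the 10 genes described, grey the others, and the dashed line the median of all peaks, 3.26; phosphofructokinase and phosphoglycerate kinase are the steps with no bar, and gpd-2 and gpd-3 show the same peak.

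Counted by step from hexokinase to lactate dehydrogenase, 9 of 11 steps had at least 1 enzyme gene at a peak. The steps without one were phosphofructokinase, the committed and most regulated step of the pathway, and phosphoglycerate kinase, the earlier of its ATP-forming steps. From hexokinase to triosephosphate isomerase, where ATP is spent, 4 of 5 steps had a peak. From GAPDH to pyruvate kinase, where ATP is made, 4 of 5 also did. The genes described here cover 9 of the 11 steps, of which 7 had a peak, and hexokinase and GAPDH make up the remainder.

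The pathway began with weak peaks. gpi-1 encodes glucose-6-phosphate isomerase, which converts glucose 6-phosphate to fructose 6-phosphate. Its peak held 221 tags (exact 95% Poisson interval 193 to 252) over 1173 bp at 2.76-fold, on chromosome I from 13576013 to 13577185. With a score of 87.15 it ranked 693 of 1005, in the lower part of the list, and it was the weakest of the 9 by fold, score and tags. Before it in the pathway, the hexokinase gene hxk-1 was listed under its locus name with a peak of 436 tags and only 2.33-fold, rank 981 by fold. The other hexokinase genes, hxk-2 and hxk-3, had no row.

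Neither gene of phosphofructokinase, pfk-1.1 on chromosome X and pfk-1.2 on chromosome V, had a row. In the gene order of the RefSeq table pfk-1.1 lay between B0410.3 and gbb-1, both named at peaks, with 5 and 2 protein-coding genes in between. Between the peaks of those genes the list held no peak that was unnamed or had an unmatched name. A different enzyme came close by name. A row on chromosome IV (5940952 to 5942233) carried the words 6-phosphofructo-2-kinase in place of a gene name, with 250 tags at 2.97-fold and a score of 79.34. That enzyme makes fructose 2,6-bisphosphate, an activator of phosphofructokinase in mammals, and does not catalyse the step itself. The gene pfkb-1.2 lay between the genes of the flanking peaks in gene order, 27 and 11 genes away from them, so the row could not be tied to it more closely. This row was picked out after its values had been seen.

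Both aldolase genes, whose product cleaves fructose 1,6-bisphosphate into triose phosphates, had a peak of their own. The aldo-1 peak held 1327 tags (95% interval 1257 to 1400), the most of the 9, at 5.19-fold on chromosome III from 13562619 to 13566841. The aldo-2 peak lay elsewhere on the same chromosome, from 5873755 to 5876782, with 736 tags (684 to 791) at 3.64-fold. The tag ratio of aldo-1 to aldo-2 was 1.8 (exact 95% interval 1.65 to 1.98), and per kb of peak it was 1.29 (1.18 to 1.42). These intervals cover counting error only and say nothing of how another pair of libraries would vary. By score aldo-1 stood at rank 35 of 1005 with 1469.19, the best of the 9, and aldo-2 at rank 125 with 597.86. aldo-1 alone of the 9 had a false discovery rate no higher than 5%, at 2.78%, a limit that 32 of the 1004 peaks with a rate met. The other 8 peaks had rates of 5.75% to 7.98%, and the median of the list was 7.55%.

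tpi-1 encodes triosephosphate isomerase, which interconverts the triose phosphates. Its peak of 339 tags (304 to 377) reached 4.0-fold over 1430 bp on chromosome II (12039415 to 12040844). That was the median fold of the 9 peaks, from fewer tags than at aldo-2, whose fold was lower. Per kb of peak, tpi-1 held 237 tags and aldo-2 243. By score the order was the other way, with 268.11 (rank 286) at tpi-1 and 597.86 (rank 125) at aldo-2. The false discovery rate at tpi-1, 7.98%, was the highest of the 9.

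Next in the pathway, GAPDH had a shared peak of 2419 tags at 7.5-fold that was named for gpd-2, mai-1 and gpd-3. It exceeded every peak described here in fold, tags and score, while gpd-1 and gpd-4 had no row.

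No row was named for pgk-1, the single phosphoglycerate kinase gene listed here. In gene order it lay on chromosome I between azin-1, listed as F53F10.2, and C50F2.2, with 7 and 5 protein-coding genes in between. No unnamed or unmatched peak was listed between the peaks of those genes either. A peak below the caller's cutoff of 1e-05 would not appear, so absence of a row does not show absence of binding.

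The steps after phosphoglycerate kinase all had peaks, and some of the strongest. ipgm-1 encodes the cofactor-independent phosphoglycerate mutase, which moves the phosphate between carbons of phosphoglycerate and is unrelated to the mammalian enzyme. Of the 8 genes only ipgm-1 was named at more than 1 peak, which holds for 1.66% of the 905 protein-coding genes named in the list. The stronger peak held 638 tags (589 to 689) at 6.76-fold with a score of 811.18, on chromosome I from 6568680 to 6570837. The weaker held 244 tags (214 to 277) at 3.15-fold with a score of 117.63, from 6563931 to 6565151. The stretch between the peaks was 3528 bp and their summits were 4706 bp apart. The RefSeq span of ipgm-1 was 3040 bp, shorter than that stretch, so the gene cannot overlap both peaks that carry its name. Per kb of peak the stronger held 1.48 times the tags of the weaker (exact 95% interval 1.27 to 1.72). By fold they stood at ranks 54 and 539, on either side of the list's median.

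enol-1 encodes enolase, which forms phosphoenolpyruvate. Its peak of 1008 tags (947 to 1072) was broad, 3666 bp, but of moderate height, 4.08-fold, on chromosome II from 8930655 to 8934320. Its score of 634.68 placed it at rank 118, well above its place by fold, 246.

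pyk-1 encodes pyruvate kinase, which makes ATP and pyruvate. Its peak was small, with 305 tags (272 to 341) over 1430 bp at 3.74-fold on chromosome I (9171674 to 9173103). Its isozyme gene pyk-2 on chromosome IV had no row. The nearest gene in order with a peak was rbr-2, with 2 genes in between.

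ldh-1, the lactate dehydrogenase gene, had the highest fold of the 9 peaks. Its peak reached 7.09-fold with 1002 tags (941 to 1066) over 4049 bp on chromosome II from 11723247 to 11727295. By fold it ranked 47 of 1005, between an unnamed peak at 7.11-fold and zk250.4 at 7.0-fold. Its tag interval overlapped that of enol-1 almost entirely, yet the fold at enol-1 was 4.08, so like tag counts went with unlike folds.

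**Figure D2:**
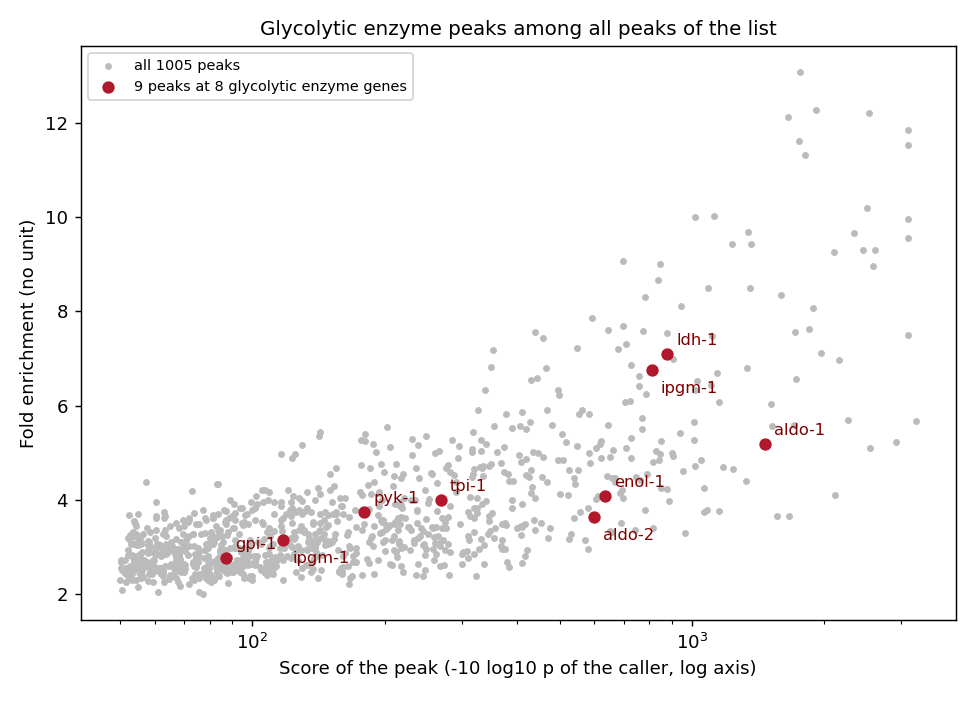
Fold enrichment (vertical axis, a ratio without unit) against the caller's score (horizontal axis, logarithmic) for all 1005 peaks in grey and the 9 glycolytic peaks in red. ldh-1 and the stronger ipgm-1 peak stand highest by fold at 7.09 and 6.76, aldo-1 farthest right at a score of 1469.19, and gpi-1 lowest on both at 2.76 and 87.15.

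Ordered by tags the genes fell into steps. aldo-1, the longest of the 9 peaks, stood above all others in tags, beyond counting error. enol-1 and ldh-1 followed with overlapping intervals. aldo-2 and the stronger ipgm-1 peak overlapped at their edges, from 684 to 689 tags. Below them each of tpi-1, pyk-1, the weaker ipgm-1 peak and gpi-1 overlapped the next in that order. The 9 peaks spanned 1173 to 4223 bp with a median length of 2158 bp, against 1555 bp for all peaks. Per kb of peak they held 188 to 314 tags with a median of 243, against 204 for all peaks, and 7 of the 9 lay above that median. By this measure the lead of aldo-1 was small, 314 against 296 at the stronger ipgm-1 peak. That gap was not set against counting error.

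The place of the summit within the peak varied among the 9, from 17.3% to 82.1% of the length. Summit place was not compared with that in all peaks of the list. Whether its spread, or its relation to length, is particular to the 9 cannot be said. In the ldh-1 peak the summit lay 701 bp from the lower-coordinate end, at 17.3%. In the aldo-1 peak it lay 757 bp from the higher-coordinate end, at 82.1%. The summit was near the middle at enol-1 (46.9%), gpi-1 (51.5%), tpi-1 (54.4%) and the weaker ipgm-1 peak (56.0%). It was nearer the lower-coordinate end at aldo-2 (35.0%), pyk-1 (34.6%) and the stronger ipgm-1 peak (29.7%). The summits farthest from the middle were in the longest peaks, aldo-1 (4223 bp) and ldh-1 (4049 bp). The shortest peaks, gpi-1 (1173 bp) and the weaker ipgm-1 peak (1221 bp), had summits near the middle. Length did not sort the peaks fully, since the long enol-1 peak, 3666 bp, had its summit near the middle. The tpi-1 and pyk-1 peaks also differed in summit place at the same length, 1430 bp. The strand of the genes was not used here, so which end faces a promoter cannot be said, and the position of summits within promoters, introns or exons is not given here.

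Peak length was set against the span of each gene in the RefSeq table. The peaks of aldo-1, aldo-2, enol-1 and ldh-1 were longer than their genes, by 2.65, 1.69, 1.31 and 1.74 times. The pyk-1 peak was 0.158 times its gene span of 9057 bp and the gpi-1 peak 0.216 times its span of 5438 bp. In all, 4 of the 9 peaks exceeded their gene (44.4%), against 32.3% of the 745 peaks in the list with 1 matched protein-coding name.

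Several of the peaks had close neighbours. The ldh-1 peak was flanked on both sides, by a peak named F13D12.3 across 971 bp (567 tags, 2.72-fold) and by one named alh-8 across 826 bp (866 tags, 2.64-fold). Both flanking peaks were lower in fold than the 7.09 at ldh-1. The tpi-1 peak was 926 bp from a peak named Y17G7B.13, which had 351 tags and 3.15-fold. That gene, ippk-1, is also the direct neighbour of tpi-1 in gene order. A peak named eft-2, an older name of the elongation factor gene eef-2, lay 3806 bp from the pyk-1 peak and held 965 tags at 2.67-fold. eef-2 is next to pyk-1 in gene order. Within 5000 bp, 5 of the 9 peaks had another peak, the 2 of ipgm-1 through each other, against 18.3% of all peaks. Within 1000 bp it was 2 of 9 against 5.87%. No other peak lay within 5000 bp of those at gpi-1, aldo-1, aldo-2 and enol-1.

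**Figure D3:**
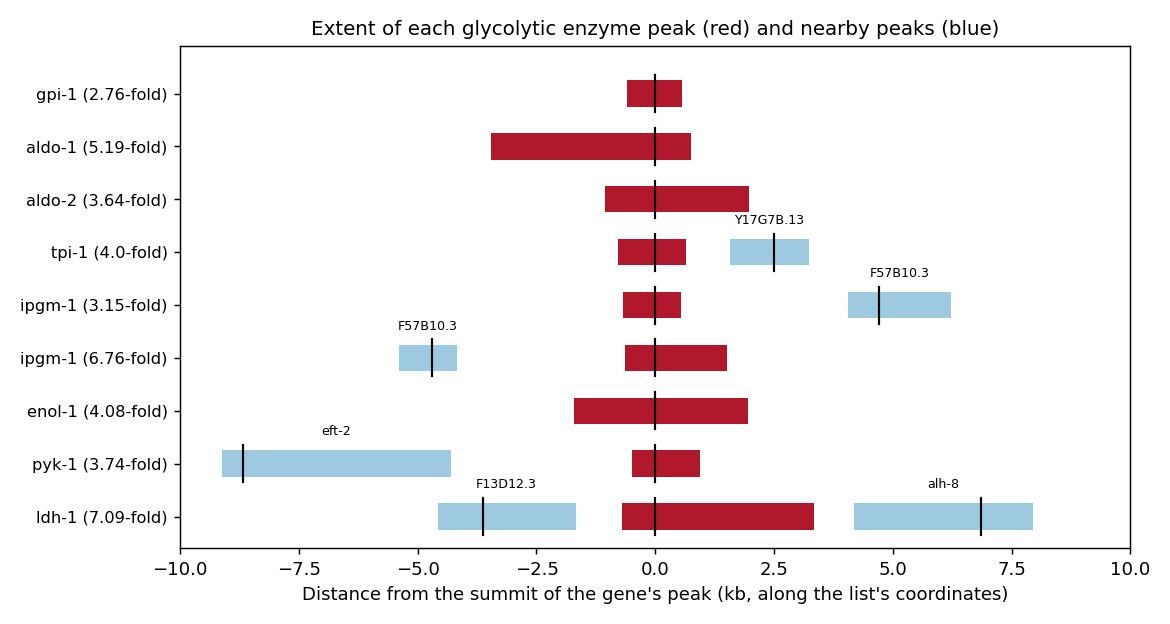
Extent of each of the 9 glycolytic peaks (red) and of other peaks in the list (blue, with the name given there) by distance in kb from the summit of the glycolytic peak, along increasing coordinates; black ticks are summits. The ldh-1 peak has a neighbour on each side, across 971 and 826 bp, and its summit lies near the lower end, while gpi-1, aldo-1, aldo-2 and enol-1 stand alone.

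The names were checked against gene order, which needs no shared genome build. All 9 peaks lay between flanking peaks whose genes bracket the named gene in the RefSeq order. The same held for 828 of 830 matched peaks in the list. The bracket was tightest at ldh-1, 1 gene from the flanking gene on one side and 2 on the other, and at tpi-1, 9 and 1. The ipgm-1 peaks were each other's flank, so on that side the check could not fail for them. For the weaker ipgm-1 peak the nearest matched gene on the far side was 108 genes away, so its name is the least constrained by this check. All 9 peaks carried a single name.

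Among related pathways of carbohydrate use, 5 of 34 genes had a peak (14.7%), again against 4.53% of protein-coding genes. Gluconeogenesis, the reverse route to glucose, had 2 of 5, at the phosphoenolpyruvate carboxykinase gene pck-1 (2.82-fold, 414 tags) and the pyruvate carboxylase gene pyc-1 (2.52-fold, 842 tags). Of 8 genes that carry pyruvate into mitochondria or convert it to acetyl-CoA, or control that conversion, only the pyruvate dehydrogenase kinase gene pdhk-2 had a peak (3.49-fold, 209 tags). That kinase switches pyruvate dehydrogenase off. The pentose phosphate pathway had 1 of 7, the transketolase gene tkt-1 (2.7-fold, 311 tags). Glycogen and trehalose metabolism had 1 of 14, the trehalose-6-phosphate phosphatase gene gob-1 (2.51-fold, 228 tags). By fold 4 of these 5 peaks lay under the list's median of 3.26, pdhk-2 being above it. By score 3 of the 5 lay under the median of 135.6, with pck-1 (161.1) and pyc-1 (246.92) above it. Of the 9 glycolytic peaks 2, those of gpi-1 and the weaker ipgm-1 peak, lay under the median by either measure, as did the hxk-1 peak. The difference between the sets was not tested. The sets overlapped in fold, with pdhk-2 above the weaker ipgm-1 peak (3.15) and gpi-1 (2.76), and pck-1 above gpi-1. All 5 exceeded the 2.33-fold of hxk-1. None of the 5 reached the 3.64-fold of aldo-2, the next of the 9 glycolytic peaks by fold.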

How the data were processed

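The authors' deposited table was a peak list. Per the file headers, MACS 1.4.2 compared the antibody library with the no-antibody library, each single and unpooled. It kept peaks past a p cutoff of 1e-05, at most 1 tag per position, with fragments set to 200 bp and the effective genome to 90000000 bp. The submitters' processing notes name BWA 0.7.5, Picard and MACS 1.4. The genome build and the way genes were assigned are not given in the sources used here. The deposited columns used were the tag count, the fold enrichment, the score and the false discovery rate in percent. The score's heading had been lost, and it was read from its place and from its minimum of 50.06, just above the 50 that the cutoff gives on that scale.

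Names were matched without case to symbols, locus names and any listed synonyms of RefSeq genes on the peak's chromosome, and 930 of 1033 matched. The RefSeq genes (WBcel235) were used for names, gene order and span only. Ranks, percentiles, tags per kb and exact 95% Poisson intervals were computed with Python 3.11.15 and scipy 1.17.1, and matching and ranking were tested on simulated data. The intervals cover counting error only. The genes and lists were chosen with earlier results of these data known, so no list was tested. Named are the 10 genes, the other glycolytic genes, genes of related lists with a peak, and genes next to them in gene order or in rank. Alternatives covered name matching, stricter peak choices and other measures of height. The nearby peaks were picked by distance after the list was seen.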

Additional observations from a re-analysis of the deposited data

How the results depend on the processing

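No paired analysis was possible because there was a single library with antibody and a single one without, which also leaves none to drop. Of the 10 glycolytic genes 8 had a peak and of the 11 steps 9; among peaks no lower than the median fold, or than the median score, these were 7 and 7, and with single-name peaks 8 and 8. With symbols only they fell to 4 genes and 5 steps, since 4 of the genes are listed under locus names. Among the 32 peaks whose false discovery rate was at most 5% they were 1 gene, aldo-1, and 2 steps, against 0.145% of protein-coding genes; fewer peaks remain by construction. The median percentile of the 9 peaks in the list was 73.6 by fold, 78.7 by tags per kb and 87.6 by score (the cause of that difference was not tested), and 74.6 by fold among single-name peaks. The planned promoter motifs, with their window alternative, and isozyme identities were not run, since no sequence was used here. Without a replicate, depth bounds counting error only.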
